A study of Homo sapiens with 6 samples.

Results

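The genes described here are those that the deposited table assigns to the KEGG pathway Lysosome and whose mean FPKM over the 6 libraries was at least 1. FPKM is the number of fragments of a gene divided by its transcript length and by the number of fragments mapped in that library. Of 121 annotated genes, 95 met this threshold and 26 did not, in a table of 31142 genes of which 10942 had a mean of at least 1. The mean FPKM chose the members, so their levels are a description, and the comparisons below concern the difference between libraries, which the rule did not use. Just inside the threshold were ARSB at a mean of 1.07 FPKM and GNPTAB at 1.37, and just outside it were CTSK at 0.961 and MANBA at 0.899.

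RNA-seq was performed on cells labelled SKM-1, described as a human leukemia line derived from myelodysplastic syndromes (MDS), with 3 libraries of cells labelled as carrying the S34F mutant of the splicing factor U2AF1 and 3 labelled as carrying wild-type U2AF1 (WT), all taken at 96 h. Erythroid markers were high and monocytic markers mostly near 0 in all 6 libraries, with values given further on, and the identity of the line was not tested. Per the methods of the study, both forms were FLAG-tagged, delivered by lentivirus and stably expressed in cells that also had their own wild-type U2AF1. The titles of the WT samples carry a prefix that the study also used for negative controls, and the protocol speaks of a vehicle control, so whether these cells received WT virus or another control cannot be told apart here. The study speaks of independent RNA samples but nothing in the labels says that the replicates came from separate cultures, and the p-values then measure only the spread between these samples, which may be technical.

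Lysosomes are the acidic compartments in which cells break down proteins, sugars, lipids and nucleic acids taken up from outside or delivered by autophagy. Most of their enzymes are soluble, receive a mannose 6-phosphate tag in the Golgi and are carried onward by sorting receptors in vesicles coated with clathrin and adaptor proteins, while a proton pump in the membrane keeps the interior acidic. Many genes of this system share a palindromic promoter element, named CLEAR, that is recognized by the transcription factors TFEB, TFE3 and MITF, and blood cells of the monocyte and macrophage line are known for their rich content of lysosomes.

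The members covered the whole system, and a few of them carried much of its RNA. Mean FPKM ran from 1.07 to 651, with a median of 11.5 against 5.31 over all 10942 genes, and 51 members had a mean of at least 10. The 5 members with a mean of at least 100 were PSAP, the precursor of the saposins that help enzymes reach sphingolipids, CD63, a tetraspanin of the lysosomal membrane, the proteases CTSD and CTSL, and ATP6V0C, the subunit that forms the proton-carrying ring of the pump. Together they made up 45.5% of the summed FPKM of the members. Among the 26 genes under the threshold were LIPA, the acid lipase, at 0.619 FPKM, LGMN, a protease of the lysosome, at 0.270, and ATP6V0D2, a pump subunit, at 0.00608. FPKM are given per length, so levels of different genes can be set side by side.

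Many genes of this system are already known to share the CLEAR element, so the shares below describe the members and are not a new result. The windows from 250 bases before to 50 after the RefSeq start sites (build GRCh38.p14) were searched for it. Windows were found for 73 of the 95 members, and there was none for the others, among them AP1M1, AP3B1, AP3D1, AP3M2, ARSA, ASAH1, ATP6V1H, CTSB, CTSS, ENTPD4, GGA2, HEXA, HGSNAT, LAMP2, LAPTM4B, NAGLU, PSAP and SGSH. The letters CACGTG, the core of the element, read the same on both strands. They stood in the windows of 20 of the 73 members (27.4%). The shares were 13.4% of the 7503 tested genes that had a window and 8.77% of all 27305 genes. Counted by window, they stood in 21 of the 109 windows of members (19.3%), against 7.26% of all 35116 windows. The longer palindrome TCACGTGA contains CACGTG and is counted under both. It stood in the windows of 11 of the 73 (15.1%), against 2.53% of the 7503 and 1.18% of all genes. Counted by window, it stood in 12 of the 109 (11.0%), against 0.98% of all windows. A gene with more windows has more room for a match. Members were matched by older symbols too, the 7503 by present symbol only, so the shares of genes are not fully alike. The 11 were ATP6V0D1, CD164, CLN3, CTSA, GAA, GALNS, GNPTG, IGF2R, LAMP1, MCOLN1 and NAGPA. A match describes the letters and is not evidence of binding. The windows of 4 of them are printed from 5′ to 3′ with TCACGTGA in capitals. IGF2R, a receptor for the mannose 6-phosphate tag, is shown because its window held 3 copies, the most of any member. The others are ATP6V0D1, a pump subunit, MCOLN1, a calcium channel of the lysosome, and GNPTG, a subunit of the enzyme that starts the tag. They were picked with their values in view, each being highest in replicate 3 of both groups. Not all of the 11 were, as described further on.
ATP6V0D1 promoter (chr16:67481108-67481407, minus strand): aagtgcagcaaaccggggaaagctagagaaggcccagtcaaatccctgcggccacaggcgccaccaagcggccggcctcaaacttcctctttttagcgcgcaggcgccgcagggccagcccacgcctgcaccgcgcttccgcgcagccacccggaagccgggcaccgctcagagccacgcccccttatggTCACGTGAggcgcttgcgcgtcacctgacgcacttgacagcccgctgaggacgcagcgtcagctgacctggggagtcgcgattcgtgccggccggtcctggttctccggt
GNPTG promoter (chr16:1351681-1351980, plus strand): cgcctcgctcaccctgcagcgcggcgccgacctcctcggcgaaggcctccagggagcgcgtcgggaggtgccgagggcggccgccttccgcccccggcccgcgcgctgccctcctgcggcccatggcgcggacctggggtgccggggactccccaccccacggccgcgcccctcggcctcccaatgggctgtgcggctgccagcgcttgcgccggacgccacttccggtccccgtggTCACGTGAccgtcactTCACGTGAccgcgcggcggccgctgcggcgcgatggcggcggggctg
IGF2R promoter (chr6:159968832-159969131, plus strand): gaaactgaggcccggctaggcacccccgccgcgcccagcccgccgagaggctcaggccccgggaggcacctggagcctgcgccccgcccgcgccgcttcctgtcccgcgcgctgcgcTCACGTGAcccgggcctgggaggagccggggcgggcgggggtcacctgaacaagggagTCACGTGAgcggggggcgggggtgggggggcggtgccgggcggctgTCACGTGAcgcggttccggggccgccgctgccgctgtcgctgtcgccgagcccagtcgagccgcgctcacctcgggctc
MCOLN1 promoter (chr19:7522374-7522673, plus strand): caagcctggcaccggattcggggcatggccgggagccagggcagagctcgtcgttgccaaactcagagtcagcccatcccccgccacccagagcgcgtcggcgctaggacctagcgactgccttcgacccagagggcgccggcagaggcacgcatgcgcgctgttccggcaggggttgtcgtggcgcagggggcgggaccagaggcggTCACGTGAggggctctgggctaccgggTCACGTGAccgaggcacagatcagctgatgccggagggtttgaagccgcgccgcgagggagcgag

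The first and second replicates of each group lay close together, and the third replicate stood apart in both groups. The median absolute difference between libraries over the members, on the log2(FPKM + 1) scale, was 0.0802 between S34F replicates 1 and 2, but 0.408 and 0.334 between these and S34F replicate 3. Between WT replicates 1 and 2 it was 0.0585, and between these and WT replicate 3 it was 0.19 and 0.188. Over all 10942 genes the same distances from the third replicate were 0.284 and 0.282 for S34F and 0.186 and 0.188 for WT. The counts of members called and their median difference are therefore given with and without the third replicates, and so are some single genes.

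The summed FPKM of the members showed the same division. It was 2401 and 2443 in S34F replicates 1 and 2 and 3465 in S34F replicate 3, and 2659, 2624 and 3185 in WT replicates 1, 2 and 3. As a share of the summed FPKM of all genes this was 0.703%, 0.710% and 1.03% for S34F and 0.763%, 0.761% and 0.901% for WT. In replicates 1 and 2 the S34F sums lay below the WT sums, in replicate 3 the S34F sum lay above, and the groups overlapped. PSAP, the largest contributor, held between 19.2% and 26.4% of the sum in each library, and without it the sums were 1919, 1974 and 2556 for S34F and 2052, 2027 and 2346 for WT, in the same order by replicate number. In such bulk RNA, fewer cells of a kind and less RNA per cell cannot be told apart.

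**Figure D1:**
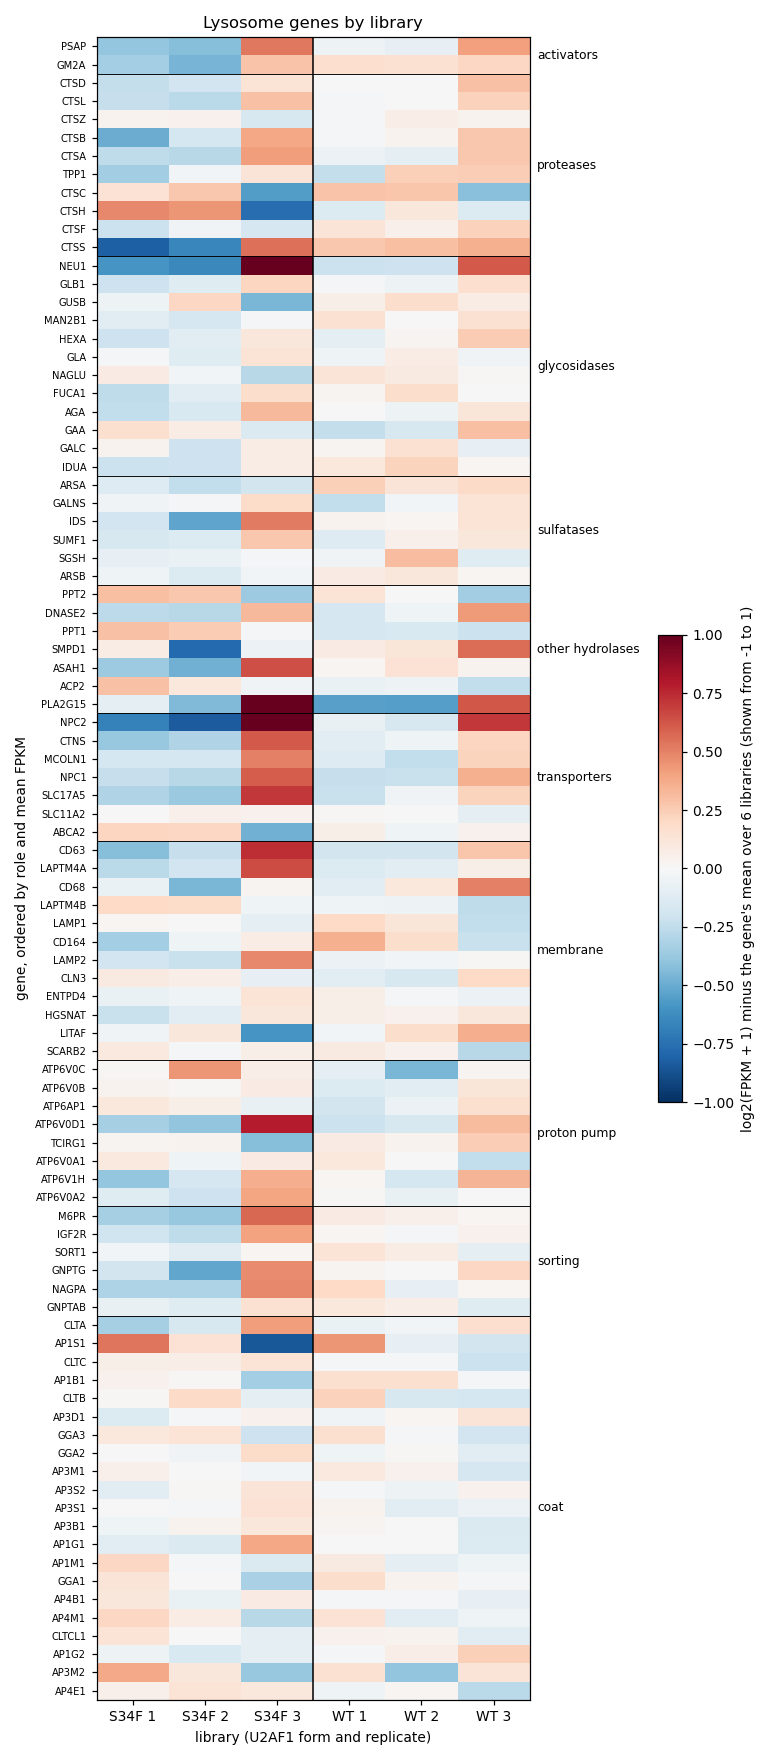
Each row is 1 of 91 of the 95 lysosome genes, grouped by role and ordered by mean FPKM, and each column is 1 library. Colour gives log2(FPKM + 1) minus the mean of the gene over the 6 libraries, from -1 (blue) to 1 (red), with 3 cells beyond that scale. S34F replicate 3 is red for most genes above the coat genes and S34F replicates 1 and 2 are mostly blue there, while most of the 21 coat genes at the bottom are pale, with AP1S1, AP3M2 and CLTA among the exceptions.

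The comparison of S34F with WT asks whether the mutant changes the RNA of this system. With all 6 libraries, 1 member was higher and 2 were lower in S34F at an unadjusted p under 0.05 by limma. The higher one was PPT1, a thioesterase that removes fatty acids from proteins, and the lower ones were ARSA, the sulfatase of sulfatides, and CTSF, a cysteine protease. Over all genes tested, 0.823% were higher and 1.57% were lower by the same rule, so the members were called about as seldom as other genes. No member, 0 of 95, had an adjusted p under 0.05 by limma, as was true of 0.0% of all genes, and 0 members passed an unadjusted p under 0.05 with a fold change above 1.5, against 0.585% of all genes. The median log2 difference was -0.04 over the members and 0.01 over all genes, with 42 members higher and 53 lower in S34F.

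ARSA, at chr22:50622754-50628173 on the minus strand (GENCODE 29, GRCh38), was the lower member with the smallest p. Its FPKM was 2.78, 2.48 and 2.64 in S34F replicates 1, 2 and 3 and 3.88, 3.52 and 3.73 in WT replicates 1, 2 and 3, so every S34F library lay below every WT library. The means were 2.63 ± 0.148 (SD, n = 3) and 3.71 ± 0.178 (SD, n = 3). The log2 difference was -0.38 with an SE of 0.10, with an unadjusted p of 0.00663 and an adjusted p of 1.00 by limma. Its values in replicate 3 did not stand apart, at log2 differences of 0.00 for S34F and 0.01 for WT from the mean of replicates 1 and 2. ARSA kept an unadjusted p under 0.05 in all 17 alternative fits that could test it, and the differences on the log2 scale hold a pseudocount of 1, which understates the change of genes with low FPKM.

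PPT1, at chr1:40071461-40097727 on the minus strand, had 43.6, 42.4 and 35.2 FPKM in S34F replicates 1, 2 and 3 and 31.4, 31.7 and 30.5 in WT. Every S34F library lay above every WT library, with the smallest gap in replicate 3. The log2 difference was 0.36 with an SE of 0.11, with an unadjusted p of 0.0172 and an adjusted p of 1.00 by limma, and the unadjusted p was 0.0648 without S34F replicate 1, 0.0653 without S34F replicate 2 and 0.0513 without WT replicate 1. Of its exon bases, 23.4% are shared with CAP1 on the opposite strand, and whether the counting used strand is not given in the sources used here, so its value is uncertain. CTSF, at chr11:66563463-66568841 on the minus strand, had 4.47, 5.18 and 4.65 FPKM in S34F and 5.93, 5.58 and 6.45 in WT. Its groups did not overlap either, and its log2 difference was -0.28 with an SE of 0.11, with an unadjusted p of 0.0369 and an adjusted p of 1.00 by limma. It no longer had an unadjusted p under 0.05 in 7 of 18 alternatives. Among them were the replicate block (unadjusted p = 0.0520) and the fit without the third replicates of both groups (unadjusted p = 0.0682), both by limma.

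Further members had groups that did not overlap but an unadjusted p above 0.05. In all, 4 members lay higher in every S34F library than in any WT library, against 3.66% of all genes, and 7 lay lower, against 3.73%. An exact permutation test of any such gene gives a two-sided p of 0.1, the smallest that 3 against 3 libraries allow. Besides PPT1, the higher ones were ACP2, a lysosomal acid phosphatase (log2 difference 0.24), AP4E1, a subunit of the AP-4 adaptor (0.19), and CLTC, the clathrin heavy chain (0.18). CLTC had 18.9, 19.0 and 19.995 FPKM in S34F and 17.8, 17.8 and 15.4 in WT, so the gap came mostly from the third replicates.

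Besides ARSA and CTSF, the lower ones included SMPD1, the acid sphingomyelinase, MAN2B1, a mannosidase, AP1G2, a subunit of the AP-1 adaptor, and ARSB, a sulfatase of dermatan sulfate. SMPD1 had 7.87, 3.90 and 7.06 FPKM in S34F and 7.91, 8.16 and 11.4 in WT. S34F replicate 2 alone was far lower and WT replicate 3 was high, while S34F replicate 1 lay only just under WT replicate 1, and the log2 difference was -0.51 with an SE of 0.25 and an unadjusted p of 0.0825 by limma (adjusted p = 1.00). The log2 differences of MAN2B1, AP1G2 and ARSB were -0.20, -0.19 and -0.14. AP1G2 shares 39.1% of its exon bases with a gene on the opposite strand. MAN2B1 shares 13.1% with a gene model on the same strand, whose mean was 19.3 FPKM beside 24.6 for MAN2B1, so its level is uncertain.

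With the replicate number as a block, which compares libraries of the same number, 3 members were higher and 3 lower at an unadjusted p under 0.05 by limma, against 1.59% and 2.46% of all genes. The higher ones were PPT1, LAPTM4B, a membrane protein of late endosomes, and PLA2G15, the lysosomal phospholipase. The lower ones were ARSA, SMPD1 and CTSD, the aspartic protease. CTSD had 119, 123.05 and 154 FPKM in S34F and 140, 140 and 173 in WT, so that it was higher in replicate 3 of both groups and lower in S34F within each number. Its log2 difference was -0.19, with an unadjusted p of 0.0482 in the block fit against 0.219 without the block, both by limma. CTSD shares 41.7% of its exon bases with a gene model on the same strand, so its level is uncertain. PLA2G15 had 3.61, 2.61 and 8.81 FPKM in S34F and 2.37, 2.35 and 6.55 in WT, a spread by replicate number that was wider than its log2 difference of 0.31 between groups. Within all 3 numbers, 17 of the 95 members were lower in S34F, beside 1318 of all 10942 genes. In the same way 8 of the 95 were higher, beside 1459 of the 10942.

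Within replicates 1 and 2 most members were lower in S34F, and within replicate 3 most were higher. Of the 95 members, 66 were lower in S34F replicate 1 than in WT replicate 1 and 64 were lower in replicate 2, but 34 were lower in replicate 3. Over all 10942 genes the corresponding counts were 5437, 5782 and 4783. As shares this was 69.5%, 67.4% and 35.8% of the members, beside 49.7%, 52.8% and 43.7% of all genes. The median log2 difference of the members was -0.09, -0.09 and 0.11 in the 3 numbers, against 0.00, -0.01 and 0.05 over all genes. As many as 55 members were lower in both of the first 2 numbers, and 38 of these were higher in the third, which is 40.0% of the members beside 21.7% of all genes. The direction of the lysosome genes as a group thus differed by replicate number in these libraries.

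Without the third replicates of both groups, the spread within groups was narrow and many more members were called. In this fit of 2 against 2 libraries, 10 members were higher and 27 were lower at an unadjusted p under 0.05 by limma, against 8.16% and 8.71% of all genes, and the median log2 difference was -0.11 against -0.01 over all genes. Leaving out S34F replicate 3 alone gave 4 members higher and 22 lower, against 5.26% and 5.34% of all genes. None of the 95 had an adjusted p under 0.05 in either of these fits. An exact permutation test on 2 against 2 libraries cannot give a two-sided p below 0.333, and the fit was made because the third replicates stood apart.

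The 27 lower members came from all 10 roles. They included both activators, PSAP and GM2A, the cofactor that presents ganglioside to its enzyme, and 5 of the 10 proteases, namely CTSS, CTSB, CTSL, CTSD and CTSA. They also included 5 of the 6 genes of mannose 6-phosphate tagging and sorting, M6PR, IGF2R, SORT1, GNPTG and NAGPA. PSAP had 482 and 470 FPKM in S34F replicates 1 and 2 and 608 and 596 in WT replicates 1 and 2, but 908 and 839 in the third replicates. The S34F value was thus the lower one in the first pairs and the higher one in the third, with log2 differences of -0.34 (unadjusted p = 0.000739, adjusted p = 0.109 by limma) without the third replicates and -0.19 (unadjusted p = 0.520, adjusted p = 1.00 by limma) with them.

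CTSS, a cysteine protease known from antigen-presenting cells, had 2.37, 2.78 and 7.73 FPKM in S34F and 6.15, 6.31 and 6.61 in WT. It was the member with the lowest log2 difference without the third replicates, at -1.02 (unadjusted p = 0.000269, adjusted p = 0.109 by limma), and S34F replicate 3 lay above all 3 WT libraries. LYZ, the lysozyme of myeloid cells and 1 of the 12 monocytic markers examined, had a like shape, with 8.52, 8.82 and 23.2 FPKM in S34F and 18.8, 17.0 and 17.6 in WT. In none of the other 3 markers with a mean of at least 1 FPKM did S34F replicate 3 lie above all WT libraries. SPI1 had 10.8, 11.4 and 7.64 FPKM in S34F and 12.4, 11.2 and 10.045 in WT, while ITGAM and CD33 were lower in every S34F library than in any WT library (unadjusted p of 0.0148 and 0.0469, both with an adjusted p of 1.00, by limma). Of the 12 markers, 8 had a mean under 1 FPKM, with MPO, FCN1 and S100A8 at or near 0 in every library, and their summed levels were 23.1 to 37.2 in S34F and 34.3 to 37.8 in WT. Their part in the result was not tested.

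M6PR, the cation-dependent receptor for the tag, showed the shape of CTSS with 16.6, 16.1 and 32.0 FPKM in S34F against 22.5, 21.98 and 21.5 in WT. GM2A had 12.7, 11.6 and 20.1 FPKM in S34F against 18.5, 18.2 and 19.0 in WT. In CTSS, M6PR and GM2A the WT libraries were level and the S34F libraries alone differed by replicate. M6PR shares 29.3% of its exon bases with PHC1 on the opposite strand.

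The 10 higher members without the third replicates were PPT1, PPT2, ACP2, GAA, the acid glucosidase of glycogen, CTSH, an aminopeptidase, ABCA2, a lipid transporter, LAPTM4B, CLN3, the membrane protein lost in Batten disease, and the pump subunits ATP6V0B and ATP6AP1. CTSH had 12.4, 12.045 and 4.66 FPKM in S34F against 7.74, 9.36 and 7.76 in WT, the reverse of the shape of CTSS. PPT2, a thioesterase related to PPT1, had 73.5, 71.7 and 46.1 FPKM in S34F and 65.3, 59.5 and 46.6 in WT, and shares 49.3% of its exon bases with PPT2-EGFL8 on the same strand, which makes its level uncertain.

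The third replicates differed from the first 2 in both groups, with the larger median in S34F. For each group, log2(FPKM + 1) of replicate 3 was set against the mean of replicates 1 and 2, as a description. In S34F, 66 of the 95 members were higher in replicate 3, with a median difference of 0.17 (0.00 over all genes), and in WT 53 were higher, with a median of 0.05 (-0.06 over all genes). In both groups 43 members were higher, which is 45.3% beside 28.3% of all genes, and 19 were lower, beside 3999 of the 10942 genes. A difference above 1 was seen for 8 members in S34F (8.42%, beside 2.44% of all genes) and for 1, PLA2G15, in WT (1.05%, beside 0.823%), and a difference below -1 was seen for 2 members in S34F, AP1S1 and CTSH, and for 0 in WT. What sets the third replicates apart was not tested, and the labels give no batch.

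NPC2 and NEU1 had the widest range of all members. NPC2, the soluble carrier that hands cholesterol to NPC1, had 18.9, 16.8 and 64.3 FPKM in S34F and 29.2, 27.4 and 50.9 in WT. NEU1, the sialidase, had 42.1, 40.6 and 132 in S34F and 55.1, 55.2 and 98.6 in WT. For both genes the 6 values fell in the same order of replicate and group, S34F replicates 1 and 2 lowest, WT replicates 1 and 2 next, WT replicate 3 above these and S34F replicate 3 highest. In S34F, NPC2 was 3.60-fold and NEU1 3.19-fold as high in replicate 3 as in the mean of replicates 1 and 2, and in WT the ratios were 1.796 and 1.787. The mean FPKM of NEU1 was 71.6 ± 52.4 (SD, n = 3) in S34F and 69.6 ± 25.1 (SD, n = 3) in WT, while its mean on the log2 scale was lower in S34F, by -0.13.

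The roles differed in how far the third replicates lay from the others. The 7 transporters and channels had a median difference of 0.86 in S34F and 0.35 in WT, with 5 of the 7 higher in both groups, among them CTNS, the cystine exporter, with 9.83, 10.4 and 20.5 FPKM in S34F and 12.04, 12.6 and 15.3 in WT. The 2 activators had medians of 0.81 and 0.26. The 6 genes of tagging and sorting had a median of 0.71 in S34F and -0.04 in WT, and all 6 were lower in S34F in replicates 1 and 2 and higher in replicate 3. The 10 proteases had medians of 0.33 and 0.19, the 15 glycosidases 0.20 and 0.08, the 7 sulfatases and their activator 0.21 and 0.11, the 12 membrane proteins 0.23 and 0.06, and the 7 hydrolases of lipids, phosphates and nucleic acids 0.29 and -0.05.

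Several abundant enzymes were highest in replicate 3 of each group, while PPT1 and PPT2 were lowest there in both groups. CTSL had 112, 109 and 162 FPKM in S34F and 130, 132 and 154 in WT. GLB1, the beta-galactosidase of gangliosides, had 56.3, 59.9 and 75.8 in S34F and 64.7, 62.9 and 73.2 in WT. In both genes S34F lay below WT in replicates 1 and 2 and above it in replicate 3. DNASE2, the acid nuclease, had 38.4, 38.0 and 58.4 in S34F and 41.0, 45.0 and 62.7 in WT, lower in S34F within each number.

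Among the membrane proteins CD63 had 167, 191 and 375 FPKM in S34F and 198, 198 and 273 in WT, so that it was high in replicate 3 of both groups. LAMP1, a main glycoprotein of the lysosomal membrane, did not follow it, with 34.7, 34.2 and 31.9 in S34F and 39.4, 37.2 and 28.6 in WT. LAPTM4A, a small membrane protein of late endosomes, had 57.6, 60.8 and 110 in S34F and 63.1, 64.7 and 72.4 in WT. The abundant membrane proteins thus did not vary as one.

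The 8 proton pump subunits had medians of 0.06 in S34F and 0.27 in WT and did not move together. ATP6V0C had 112, 152 and 117 FPKM in S34F and 104, 81.0 and 114 in WT, with S34F replicate 2 the highest library and WT replicate 2 the lowest. ATP6V0B had 94.4, 92.5 and 97.2 in S34F and 83.4, 85.2 and 100 in WT. ATP6V0D1, by contrast, had 15.6, 14.9 and 35.0 in S34F and 17.0, 17.7 and 25.1 in WT, the shape of NPC2. ATP6V0C shares 57.5% of its exon bases with a gene model on the same strand.

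The 21 adaptor and clathrin coat genes lay near all genes in both groups, with a median of 0.01 in S34F and -0.12 in WT, beside 0.00 and -0.06 over all genes. CLTA, a clathrin light chain and the most abundant of them, had 56.6, 63.9 and 95.7 FPKM in S34F and 68.5, 70.4 and 80.3 in WT. AP1S1, the small subunit of the AP-1 adaptor, went the other way with 44.5, 33.7 and 16.4 in S34F and 41.5, 28.6 and 26.7 in WT. Without the third replicates, 1 of the 21 coat genes was called, AP1B1, which was lower in S34F at a log2 difference of -0.13 (unadjusted p = 0.0452, adjusted p = 0.287 by limma).

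**Figure D2:**
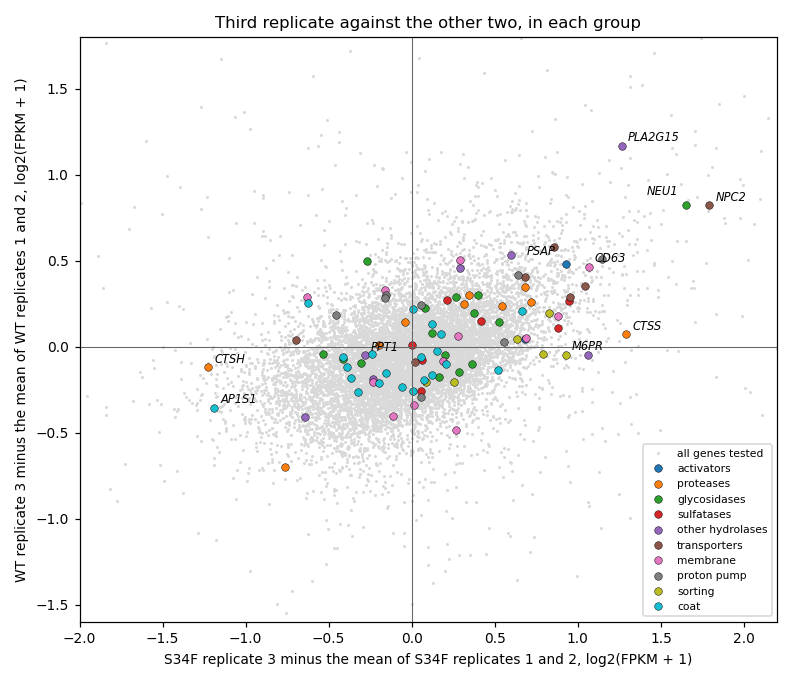
Each coloured point is 1 of the 95 lysosome genes, coloured by role, and grey points are all genes tested, with 74 genes outside the axes. The horizontal axis is S34F replicate 3 minus the mean of S34F replicates 1 and 2, and the vertical axis the same difference for WT, both in log2(FPKM + 1). NPC2 (1.79 and 0.82) and NEU1 (1.65 and 0.83) lie at the upper right, and AP1S1, a coat gene, lies at the lower left (-1.19 and -0.36).

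The members were also split by cellular location. The deposited table gives a gene ontology term for the lysosomal lumen to 35 members. Their median log2 difference between S34F and WT was -0.13, with 24 of 35 lower, against 0.02 for the other 60 members. All 3 members called with all libraries, PPT1, ARSA and CTSF, were among the 35. Without the third replicates 15 of the 35 and 12 of the other 60 were called lower, beside 8.71% of all genes, and 4 of the 35 and 6 of the other 60 were called higher, beside 8.16%. In S34F 28 of the 35 were higher in replicate 3, with a median of 0.29, and in WT 22 were, with a median of 0.08.

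The members with the promoter element printed above also had higher medians in the third replicates, with many exceptions. Of the 11 with TCACGTGA, 6 (54.5%) were higher in replicate 3 of both groups, beside 25 (40.3%) of the 62 others. The median difference of replicate 3 was 0.63 in S34F and 0.27 in WT for the 11 members with TCACGTGA, and 0.11 and 0.02 for the 62 other members with a window. IGF2R, with 3 copies, had 14.6, 13.9 and 22.6 FPKM in S34F and 17.1, 16.6 and 17.4 in WT. MCOLN1 had 8.73, 8.72 and 14.6 in S34F and 9.06, 8.25 and 11.8 in WT, and GNPTG, which shares 22.2% of its exon bases with UNKL on the opposite strand, had 7.67, 5.88 and 12.7 in S34F and 9.02, 8.86 and 10.4 in WT. With ATP6V0D1, given above, all 4 had their highest value in S34F replicate 3. LAMP1, with 2 copies, was lower in replicate 3 of both groups, by log2 differences of -0.11 in S34F and -0.41 in WT. GAA, also with 2 copies, was lower in that of S34F at -0.27 and higher in that of WT at 0.50. CLN3 was likewise lower in that of S34F at -0.16 and higher in that of WT at 0.33. CD164 and NAGPA were higher in that of S34F, at 0.26 and 0.79, and lower in that of WT, at -0.48 and -0.04. NPC2, whose difference was the widest, held neither motif in its window. Members with CACGTG had medians of 0.38 and 0.22, against 0.09 and -0.03 for the 53 without. These medians are descriptions of lists and were not tested.

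Genes of the wider lysosomal system that the KEGG annotation does not hold were taken from lists of 58 genes, of which 48 had a mean FPKM of at least 1. At an unadjusted p under 0.05 by limma, 1 was higher in S34F and 0 were lower, against 0.823% and 1.57% of all genes. The higher one was BLOC1S2, a subunit of the BORC complex that positions lysosomes, with 5.75, 5.95 and 6.85 FPKM in S34F and 3.54, 2.47 and 2.98 in WT. Every S34F library lay above every WT library, at a log2 difference of 0.85 with an SE of 0.13 (unadjusted p = 0.000442, adjusted p = 0.968 by limma), and its unadjusted p stayed under 0.05 in all 17 alternatives that could test it. Of the factors that bind the CLEAR element, TFE3 had 25.3, 25.2 and 30.6 FPKM in S34F and 26.6, 25.9 and 32.5 in WT, with overlapping groups and a log2 difference of -0.06. TFEB lay between 0.583 and 0.830 FPKM and MITF between 0.520 and 0.927, under the threshold.

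The 48 related genes as a pool repeated the division by replicate number, while the genes of BORC and lysosome transport among them went the other way. In replicates 1, 2 and 3, 28, 32 and 16 of the 48 were lower in S34F, and 35 of them were higher in S34F replicate 3 than in the mean of S34F replicates 1 and 2, with a median of 0.41, against 33 and 0.07 in WT. RRAGC, a GTPase that signals amino acid supply at the lysosome, had 4.99, 4.79 and 22.2 FPKM in S34F and 5.68, 5.65 and 12.1 in WT. The 10 other subunits of the proton pump and its accessory proteins had a median of 0.75 in S34F and 0.08 in WT. Of the 11 genes of BORC and lysosome transport, 2, 4 and 7 were lower in S34F in replicates 1, 2 and 3. The median difference of replicate 3 for these 11 was -0.0986 in S34F and 0.137 in WT. Without the third replicates 2 of the 48 related genes were called higher and 7 lower, against 8.16% and 8.71% of all genes.

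Values of the libraries that bear on these results were as follows. U2AF1 itself, both forms together, had 9.24, 9.48 and 9.18 FPKM in S34F and 8.67, 8.70 and 7.65 in WT, which does not tell the forms apart. Erythroid markers were high, with 10 of 12 at a mean of at least 10 FPKM and summed levels of 11540 to 13160 in S34F and 11260 to 12130 in WT. Monocytic markers, by contrast, were mostly near 0, as given beside CTSS. The approximate depth was 20.5 to 26.1 M fragments per library.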

How the data were processed

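The authors sequenced RNA of 6 samples and deposited 1 table with an FPKM value per gene and library. Its file name speaks of raw counts, but the values are not whole numbers. The submitters' processing notes name StringTie and edgeR without versions, and the aligner and genome build are not given in the sources used here. Columns with the authors' own fold changes, p-values and q-values were not used, and all per-sample columns were used. Depth was estimated from the FPKM of 1 fragment in single-exon genes, and FPKM give no counting errors. Count tests could not be run on FPKM.

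S34F was compared with WT by limma 3.58.1 (R 4.3.3), without a replicate block, on log2(FPKM + 1) with a trend of the variance on the mean. Of the table, 10942 genes passed a mean FPKM of 1 and were fitted, with p-values adjusted by Benjamini-Hochberg over all of them. The script was first checked on drawn data with known answers. Deviations from the group means correlated across genes at 0.212, 0.174 and 0.380 between libraries with the same replicate number. Differently numbered first and second replicates also correlated (0.197 and 0.134). The values thus set the third replicates apart but do not show which first and second replicates belong together. Libraries of equal number were treated as pairs by their labels only. Alternatives were other pseudocounts, filters, scalings and variance settings, the replicate block, and libraries left out.

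The members, roles and lists were chosen with earlier results of these data known, so no list was tested. The genes named are members called or with groups that did not overlap, the 2 most abundant of each role, the 5 with the widest range, those next to the threshold, TFEB, TFE3 and MITF, and related genes called, while any other gene was picked with its values in view. Annotated symbols were taken from the deposited table, and some annotated genes are not reported here by name. Exon overlaps came from GENCODE 29. Tables and plots were made in Python 3.11.15 with pandas 2.3.3, numpy 2.4.6, matplotlib 3.10.9 and scipy 1.17.1.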

Additional observations from a re-analysis of the deposited data

How the results depend on the processing

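The number of lysosome genes at an unadjusted p under 0.05 by limma was 3 with all libraries. It was 1 with a filter at a mean FPKM of 5, 6 with the replicate block, 37 without replicate 3 of both groups, and 1 to 26 when each library was left out in turn, the 26 without S34F replicate 3 and the 1 without WT replicate 1. The filter left 68 of the 95 lysosome genes to test, ARSA not among them, and for the other settings the cause was not tested. With the added threshold of a 1.5-fold change the number was 0 with all libraries, 2 without replicate 3 of both groups, and 0 to 3 with 1 library left out, 3 without S34F replicate 3 and 1 without S34F replicate 1. Related genes called were 1 with all libraries, 0 with the filter at 5, 9 without replicate 3 of both groups, and 1 to 4 with 1 library left out, 4 without S34F replicate 3 and 2 without S34F replicate 1, WT replicate 2 or WT replicate 3. The median log2 difference of the members was -0.04 with all libraries and -0.117 to 0.0258 with 1 left out, the lowest without S34F replicate 3 and the highest without S34F replicate 2. The direction turned for PLA2G15, whose log2 difference was -0.11 without S34F replicate 3 and up to 0.70 with another library left out, and for TFE3, at 0.0339 without WT replicate 3 and down to -0.1543 with another left out. Over 16 genes and 18 alternatives, 256 of 282 log2 differences kept their direction and their side of the threshold, 10 lost an unadjusted p under 0.05 and 14 gained it. Most of the 16 were not called with all libraries, so for them keeping their side means only staying uncalled. LAPTM4B, CTSD and PLA2G15 were included because the block fit called them, so their gains in that fit were fixed in advance. In the paired fit, with the replicate block, LAPTM4B, PLA2G15, SMPD1 and CTSD were called, CTSF was not (unadjusted p = 0.0520, adjusted p = 0.994 by limma), and it changed no other call among the genes named. FPKM hold no counts, so values near 1 FPKM could not be given a counting error.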
